A study of Mus musculus with 6 samples.

Results

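High-numbered zinc finger protein genes are the mouse genes with a symbol from Zfp500 to Zfp999, chosen here by the platform annotation of the array. A row of the deposited table was taken where its 1 gene symbol fell in that range, and Zfp534, Zfp600, Zfp979, Zfp980, Zfp981, Zfp982, Zfp984, Zfp985 and Zfp992 were left out by the rule. This gave 191 of 41345 rows and 177 of the 22180 genes tested. RNA was measured on single-colour microarrays in 3 samples of undifferentiated mouse embryonic stem (ES) cells, which are pluripotent, and in 3 samples of Pax7-GFP cells. The latter are muscle-lineage cells made from mouse ES cell lines over 3 weeks of differentiation and sorted for GFP, a fluorescent reporter of the muscle progenitor factor Pax7, with the gate set on undifferentiated cultures of the reporter line. The labels do not name the lines, the reporter construct or any further allele, nor say whether the ES samples were the reporter line itself.

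Zinc finger proteins of this kind carry arrays of C2H2 fingers, small folds held by a zinc ion, and each finger can contact a few bases of DNA. The symbol number records the order of naming and not a shared function. Many of the proteins also carry a KRAB domain, which recruits the corepressor Trim28 and, through it, the histone methyltransferase Setdb1 and heterochromatin proteins. In ES cells this system silences endogenous retroviruses and protects imprinted loci. KRAB zinc finger genes mostly lie in tandem clusters that arose by duplication, while zinc finger proteins without KRAB include developmental regulators and factors that act on RNA or ribosomes.

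Values are log2 signals of robust multi-array average (RMA), so a difference of 1 is 2-fold. Each gene was represented by 1 probe set. Signals of different genes' probe sets were ranked against each other only to choose some of the genes to name. Median signals of lists were also set side by side. A gene was called, and is said to have risen or fallen, at an adjusted p under 0.05 together with a difference of at least 2-fold (limma, Benjamini-Hochberg over all genes). All 10 ES cell markers were called lower in the sorted cells and all 10 muscle progenitor markers were called higher, so the labels matched their defining genes. Of the markers of other cells, 4 of 8 fibroblast, 3 of 10 neural, 1 of 6 endothelial, 1 of 5 endoderm and 0 of 5 haematopoietic genes were higher. Called lower were 2 neural, 1 endothelial, 2 haematopoietic, 0 fibroblast and 0 endoderm genes. Each array pooled many cells, so fewer cells that express a gene and less RNA per cell cannot be told apart. Members with near-identical copies may share probe signal, which makes their values uncertain for a single copy.

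More of these genes fell than rose between ES cells and Pax7-GFP cells. Of the 177 genes, 23 (12.99%) had fallen, 10 (5.65%) had risen and 144 did not pass. Over all genes 7.15% were called lower and 7.34% higher, 14.5% in either direction. A further 67 genes of the family passed the p threshold with a smaller difference, so that 100 of 177 passed at any fold, against 41.1% of all genes. The family was brighter than the rest, with a median ES signal of 6.70 against 6.03 for all genes. Among genes with a mean signal above 5.64, 31 of 142 members were called, a share not above the 22.96% of all genes. The remaining 77 passed neither threshold, with log2 fold changes between -0.45 and 0.77. The family's median log2 fold change was -0.17, and that of all genes was 0.024. The 150 genes from Zfp1 to Zfp499 had 20 lower (13.3%), 11 higher (7.33%) and a median of -0.057.

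**Figure D1:**
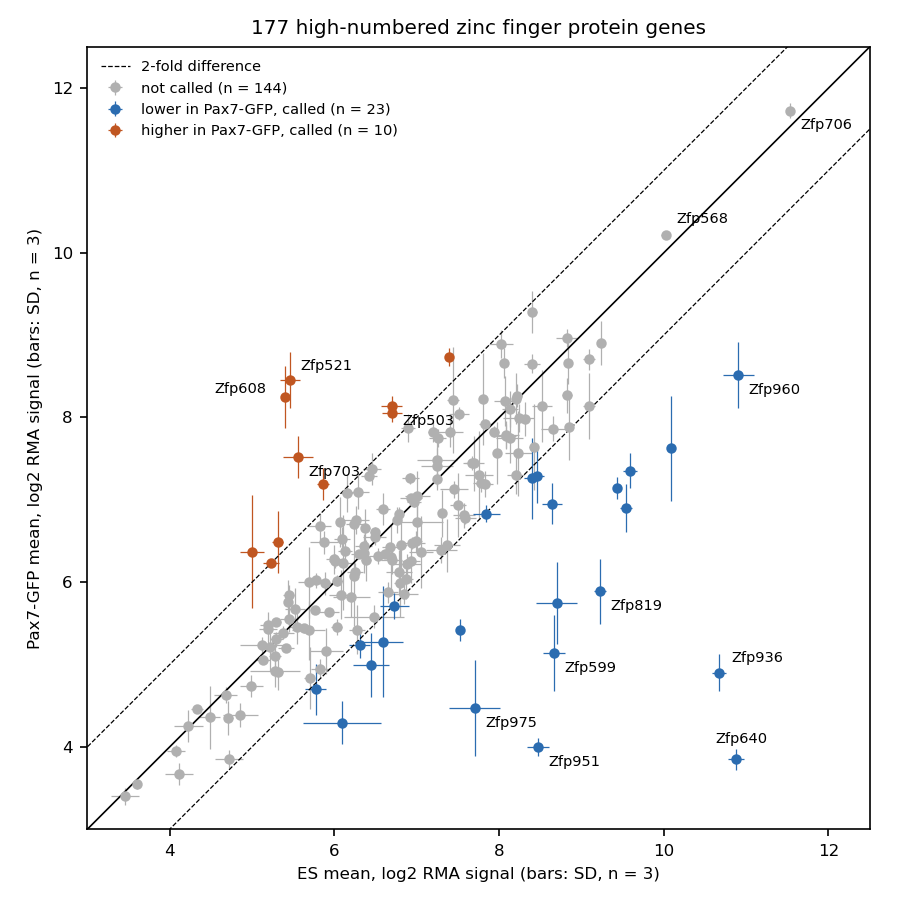
Mean log2 RMA signal of each of the 177 genes in ES cells (x axis) and in Pax7-GFP cells (y axis), with bars for the SD of 3 arrays and dashed lines at a 2-fold difference. The 23 lower genes reach a log2 fold change of -7.03, whereas the 10 higher genes end at 3.00.

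The 9 genes left out of the range all fell, with log2 fold changes from -7.96 to -3.58. With them the family would hold 32 lower and 10 higher genes of 186. Members were chosen with earlier results of these data known, so the direction of these 9 genes is not an independent result. The counts are also given by the number of the symbol, beside 7.15% lower and 7.34% higher over all genes. Among the Zfp900s 9 of 40 fell (22.5%) and 0 rose, with a median of -0.57. Among the Zfp800s 6 of 27 fell (22.2%) and 1 rose (3.70%), with a median of -0.30. The Zfp700s had 5 lower (12.8%) and 2 higher (5.13%) of 39. The Zfp600s had 1 lower (2.44%) and 4 higher (9.76%) of 41, with a median of 0.0052. The Zfp500s had 2 lower (6.67%) and 3 higher (10%) of 30, with a median of 0.058. The last 2 ranges rest on few called genes, and differences between ranges of numbers were not tested.

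The largest falls took high ES signals to low ones. Zfp640 stood at 10.91, 10.77 and 10.95 in the ES arrays and at 3.98, 3.73 and 3.84 in the Pax7-GFP arrays. The groups lay far apart, with a log2 fold change of -7.03 (SE 0.098, adjusted p = 9.86e-09). Its 3 probe sets gave -7.03, -7.45 and -7.12. Zfp936 was at 10.74, 10.70 and 10.58 in ES cells and at 5.15, 4.72 and 4.83 in Pax7-GFP cells, which differed by -5.77 (SE 0.12, adjusted p = 1.88e-08). Zfp951 was at 8.36, 8.62 and 8.43 against 3.99, 3.89 and 4.12, which differed by -4.47 (SE 0.10, adjusted p = 2.75e-08). In these 3 genes the groups were separated by many times the spread within either group. The Pax7-GFP signals of Zfp640 and Zfp951 all lay under 4.45, the upper bound of the lowest quartile of all values in the table, where a signal may be background, so their differences are not exact. With values under 4.45 set to it, the differences were -6.43 for Zfp640 and -4.02 for Zfp951. Of the other called genes, Zfp975 and Zfp820 had 2 Pax7-GFP arrays under this value and Zfp738 had 1.

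The start regions of these genes are shown because the 3 largest falls shared a stretch of bases there. Sequences are the 250 bases before the RefSeq transcript start (GRCm38.p6, read along the gene), and the labels do not give the array's own build. Capitals mark a CCAAT box (CCAAT or ATTGG) and the longest string that the windows of Zfp640, Zfp936 and Zfp951 had in common, TGCCAGTCAGA. Zfp975 and its neighbour Zfp976, a called and an uncalled gene with related windows, are printed beside them.
Zfp640 (chr13:66680804-66681053, minus strand): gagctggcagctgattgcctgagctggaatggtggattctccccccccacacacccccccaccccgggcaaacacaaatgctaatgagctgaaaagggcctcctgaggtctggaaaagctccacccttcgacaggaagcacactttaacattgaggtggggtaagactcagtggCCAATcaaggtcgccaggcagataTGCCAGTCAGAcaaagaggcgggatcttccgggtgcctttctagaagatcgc
Zfp936 (chr7:43177340-43177589, plus strand): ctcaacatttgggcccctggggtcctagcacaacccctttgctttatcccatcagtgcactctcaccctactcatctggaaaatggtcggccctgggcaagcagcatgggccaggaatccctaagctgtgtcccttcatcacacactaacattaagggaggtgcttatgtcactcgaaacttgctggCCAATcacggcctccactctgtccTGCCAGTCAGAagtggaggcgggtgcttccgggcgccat
Zfp951 (chr5:104860069-104860318, minus strand): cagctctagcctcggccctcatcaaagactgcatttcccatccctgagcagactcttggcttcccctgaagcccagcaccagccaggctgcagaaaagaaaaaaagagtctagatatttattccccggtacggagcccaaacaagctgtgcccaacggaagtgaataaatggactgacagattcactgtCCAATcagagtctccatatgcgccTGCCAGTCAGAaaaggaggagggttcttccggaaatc
Zfp975 (chr7:42692719-42692968, minus strand): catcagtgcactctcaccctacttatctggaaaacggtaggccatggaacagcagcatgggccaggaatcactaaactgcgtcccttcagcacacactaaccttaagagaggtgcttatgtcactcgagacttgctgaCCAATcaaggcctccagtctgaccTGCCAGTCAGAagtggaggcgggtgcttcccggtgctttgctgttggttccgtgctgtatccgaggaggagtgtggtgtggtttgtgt
Zfp976 (chr7:42642605-42642854, minus strand): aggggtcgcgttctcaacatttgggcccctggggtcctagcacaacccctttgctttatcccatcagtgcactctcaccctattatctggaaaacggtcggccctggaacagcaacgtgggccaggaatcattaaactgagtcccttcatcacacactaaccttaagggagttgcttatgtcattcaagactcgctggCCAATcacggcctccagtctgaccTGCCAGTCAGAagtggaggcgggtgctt

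Of the 177 genes, 149 had a RefSeq start window of 300 bases (250 before and 50 after the start, searched on both strands). The shared string was in a window of 11 of these 149 (7.38%), against 76 of 27025 genes with such a window, or 0.281%. All 11 also held a CCAAT box on the gene's strand, and in 10 of them, the 5 printed included, the string began 24 bases after the first base of the box. The same spacing was found in 60 of the 76 genes. Among the 11 members were 6 lower genes, Zfp640, Zfp936, Zfp951, Zfp975, Zfp971 and Zfp972, and 0 higher ones. The first 3 of these defined the string, and the other 8 genes had 3 lower, 0 higher and a median log2 fold change of -0.76. The 5 not called were Zfp976 at -0.85, Zfp873 at -0.68, Zfp931 at -0.56, Zfp932 at 0.13 and Zfp950 at 0.10. The string was picked after the values were seen, and copies of a duplicated gene carry the same bases, so these counts describe letters and not a site of a factor.

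Zfp936, Zfp975 and Zfp976 had related start windows and unequal changes. Zfp975 was at 7.95, 7.80 and 7.36 in ES cells and at 5.15, 4.14 and 4.13 in Pax7-GFP cells, which differed by -3.23 (SE 0.28, adjusted p = 3.30e-05). Zfp976 was at 6.36, 6.29 and 6.17 against 5.58, 5.08 and 5.60. The groups of Zfp976 did not overlap, but the difference of -0.85 (SE 0.15, adjusted p = 0.00174) was under 2-fold. The windows of Zfp975 and Zfp936 were 83.3% identical, those of Zfp976 and Zfp975 80.4%, and those of Zfp976 and Zfp936 73.0%, over the best ungapped alignment shifted by up to 60 bases. In all, 8 pairs of members reached 70% identity. Zfp971 at -1.07 (called) and Zfp931 at -0.56 (not called) were 97.0% identical, and Zfp808 at -2.46 (called) and Zfp935 at -0.92 (not called) were 83.2% identical.

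Zfp599, Zfp934, Zfp808 and Zfp960 were among the other steep falls. Zfp599 was at 8.56, 8.82 and 8.63 in ES cells and at 5.66, 4.95 and 4.79 in Pax7-GFP cells, which differed by -3.53 (SE 0.21, adjusted p = 3.88e-06). Zfp934 was at 8.97, 8.63 and 8.49 against 6.32, 5.51 and 5.42, which differed by -2.95 (SE 0.24, adjusted p = 2.15e-05). In both genes Pax7-GFP replicate 1 was the highest of its group. Zfp808 was at 10.13, 10.08 and 10.04 against 8.27, 7.0001 and 7.61, which differed by -2.46 (SE 0.27, adjusted p = 0.000134). Its Pax7-GFP arrays had an SD of 0.64 and its ES arrays one of 0.047, and replicate 1 was again the highest. Zfp960 was at 11.12, 10.77 and 10.82 against 8.97, 8.34 and 8.22, which differed by -2.39 (SE 0.19, adjusted p = 2.38e-05). In all 4 genes the ES arrays lay above the Pax7-GFP arrays without overlap.

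Of the listed KRAB zinc finger proteins with known targets among retroelements and imprinted loci, 3 fell and 3 were not called. In the family 12.99% were called lower, and over all genes 7.15%. The list was short and made with earlier results of these data known, and its split was not tested. Zfp809 recognises the primer binding site of murine leukaemia viruses and silences them in ES cells. It was at 9.39, 9.48 and 9.44 in ES cells and at 7.21, 6.995 and 7.23 in Pax7-GFP cells, with a log2 fold change of -2.29 (SE 0.092, adjusted p = 4.49e-07), or 4.89-fold lower. Zfp819, a Trim28-binding protein of pluripotent cells, was at 9.14, 9.27 and 9.26 against 6.21, 6.002 and 5.45. It differed by -3.33 (SE 0.18, adjusted p = 2.21e-06), or 10.1-fold lower. Zfp961, which acts through another retroviral primer binding site, was at 9.62, 9.50 and 9.51 against 6.56, 7.06 and 7.07, which differed by -2.64 (SE 0.14, adjusted p = 2.23e-06). The ES arrays of these 3 genes lay close together and every Pax7-GFP array lay well below them.

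Zfp568, which represses a placental promoter of Igf2 in the embryo, differed little between the groups. It was at 9.96, 10.06 and 10.05 in ES cells and at 10.19, 10.24 and 10.20 in Pax7-GFP cells, with a difference of 0.19 (SE 0.077, adjusted p = 0.0859). The Pax7-GFP arrays all lay above the ES arrays, by a margin that passed neither threshold. Zfp932, a repressor of endogenous retroviruses, was at 6.03, 6.23 and 6.06 against 6.69, 5.59 and 6.44, with overlapping groups and a difference of 0.13 (SE 0.25, adjusted p = 0.734). Its sign rests on 1 array, since the difference was -0.093 without Pax7-GFP replicate 1. Zfp708, which acts on a class of retroviral repeats, was at 5.06, 5.62 and 5.15 against 5.06, 4.69 and 5.03, with a difference of -0.35 (SE 0.16, adjusted p = 0.135).

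The other lower genes are named without a role. Zfp553 was at 9.49, 9.66 and 9.61 in ES cells and at 7.49, 7.10 and 7.46 in Pax7-GFP cells, which differed by -2.24 (SE 0.12, adjusted p = 2.06e-06). Zfp709 was at 7.51, 7.54 and 7.54 against 5.37, 5.32 and 5.57, with a difference of -2.11 by the brighter of its probe sets and -1.11 by the other, both called. Both genes separated the groups by more than their spread. Zfp820, Zfp710, Zfp759, Zfp972, Zfp781, Zfp930, Zfp738, Zfp971, Zfp850 and Zfp868 had log2 fold changes of -1.80, -1.69, -1.45, -1.31, -1.18, -1.14, -1.08, -1.07, -1.01 and -1.01. Several of these sit close to the 2-fold minimum. Zfp738, Zfp850 and Zfp868 were under it without Pax7-GFP replicate 3, at -0.94, -0.92 and -0.95, and the last 2 also without ES replicate 2, at -0.93 and -0.92. Zfp972 and Zfp930 were under it without Pax7-GFP replicate 2, at -0.98 and -0.91, and Zfp971 without ES replicate 1, at -0.997. Zfp972 also lost its call with signals under 4.45 set to that value (adjusted p = 0.0637). Its own signals all lay above 4.45 and its difference stayed at -1.31, so only its p-value changed. Just outside the minimum stood Zfp870 at -0.998 (adjusted p = 0.000129), Zfp746 at 0.98 (adjusted p = 0.000124) and Zfp825 at -0.97 (adjusted p = 0.00233). Zfp870 was called with arrays centred on a common median (-1.02), with quantile normalization (-1.02) and with array weights (-1.03). It was also called without ES replicate 2 (-1.08), ES replicate 3 (-1.004), Pax7-GFP replicate 1 (-1.05) or Pax7-GFP replicate 2 (-1.002). Zfp825 was called without Pax7-GFP replicate 1, at -1.16.

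**Figure D2:**
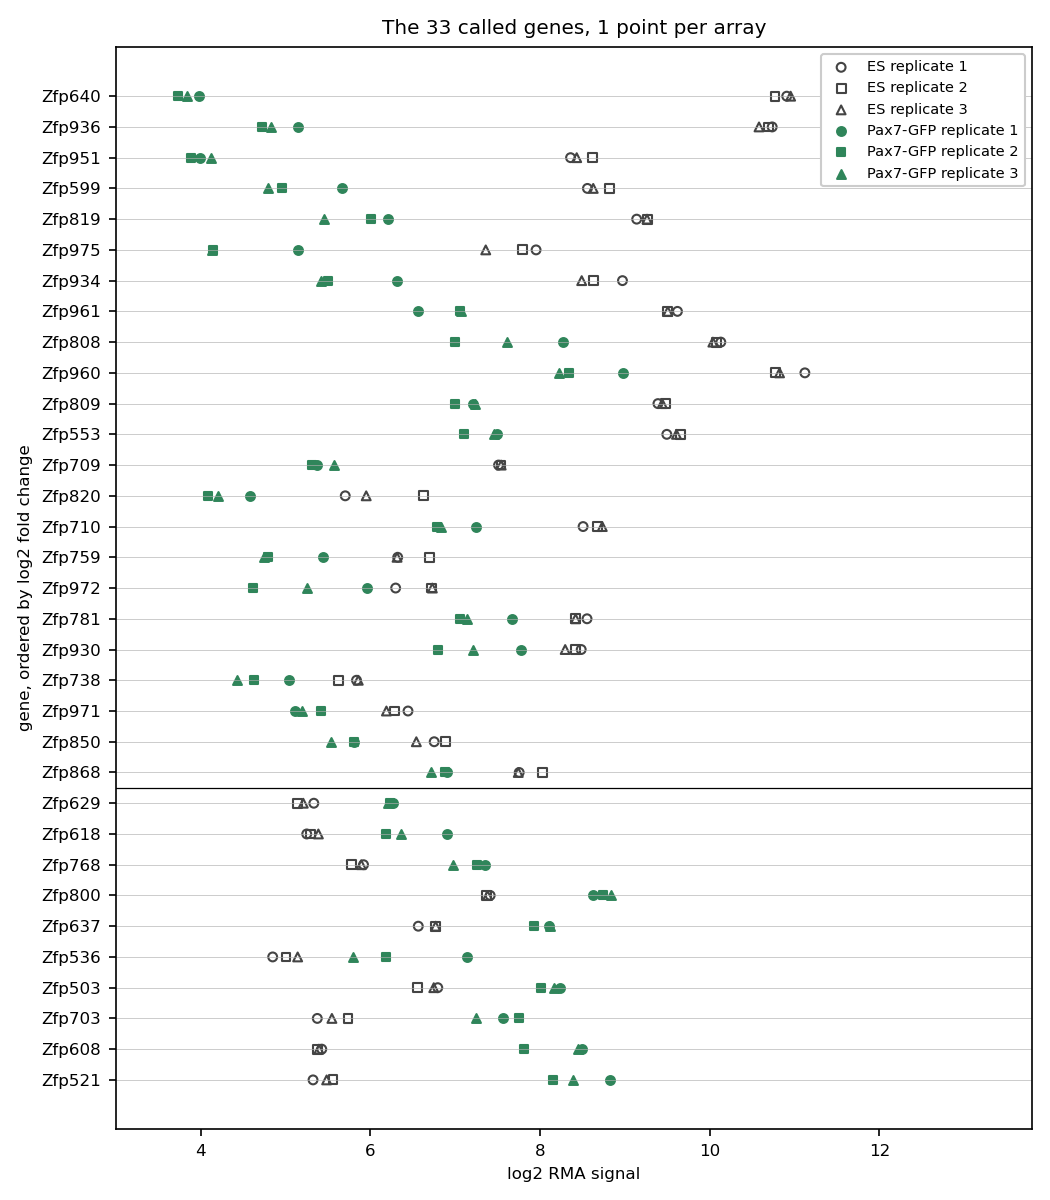
Log2 RMA signal (x axis) of the 33 called genes (y axis) in each array, with open symbols for the 3 ES arrays and filled symbols for the 3 Pax7-GFP arrays, ordered by log2 fold change from Zfp640 (-7.03) to Zfp521 (3.00). The groups do not overlap in any of the 33 genes, which the call itself selects for, nor in 3211 of the 3212 genes called over all genes. Pax7-GFP replicate 1 (filled circle) is the highest of its group in 17 of the 23 lower genes.

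The genes that rose included developmental regulators. Zfp521, a regulator of neural, adipose and blood progenitors, was at 5.32, 5.56 and 5.48 in ES cells and at 8.82, 8.16 and 8.39 in Pax7-GFP cells. Every Pax7-GFP array lay far above the ES arrays, with a log2 fold change of 3.00 (SE 0.16, adjusted p = 2.41e-06), or 7.99-fold higher. Zfp608 was at 5.43, 5.37 and 5.39 against 8.49, 7.81 and 8.44, which differed by 2.85 (SE 0.17, adjusted p = 4.13e-06). Its paralog Zfp609, which works with the Integrator complex and the cohesin loader Nipbl, was at 7.91, 8.15 and 8.17 against 8.48, 7.88 and 8.26. The groups of Zfp609 overlapped, and its difference of 0.13 (SE 0.15, adjusted p = 0.575) was -0.0089 without Pax7-GFP replicate 1.

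Both members of the NET family of zinc finger repressors rose. Zfp703 was at 5.37, 5.74 and 5.55 in ES cells and at 7.56, 7.75 and 7.25 in Pax7-GFP cells, which differed by 1.97 (SE 0.15, adjusted p = 1.40e-05). Zfp503, also known as Nolz1, was at 6.79, 6.55 and 6.75 against 8.24, 8.01 and 8.17, which differed by 1.44 (SE 0.10, adjusted p = 1.06e-05). In both genes the distance between the groups exceeded the spread within them. Zfp536, a repressor of neuronal differentiation, was at 4.85, 5.01 and 5.14 against 7.13, 6.19 and 5.79. Its Pax7-GFP arrays had an SD of 0.69, and its difference of 1.37 (SE 0.30, adjusted p = 0.00573) was 0.99 without Pax7-GFP replicate 1, under the 2-fold minimum. With signals under 4.45 set to that value its adjusted p was 0.0531, and it was not called. Its own signals all lay above 4.45 and its difference stayed at 1.37, so only its p-value changed. The 10 neural markers had a mean signal of 6.24 to 6.25 in ES arrays and 6.199 to 6.26 in Pax7-GFP arrays, 3 of them higher and 2 lower. The 8 fibroblast markers had a mean signal of 6.05 to 6.23 in ES arrays and 7.57 to 7.98 in Pax7-GFP arrays, 4 of them higher, and the part of these cells in the rises was not tested.

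Zfp618, which binds 5-hydroxymethylcytosine, was at 5.25, 5.29 and 5.39 in ES cells and at 6.91, 6.19 and 6.36 in Pax7-GFP cells. Its log2 fold change of 1.17 (SE 0.17, adjusted p = 0.000695) was 0.96 without Pax7-GFP replicate 1, under the minimum. Zfp637 was at 6.56, 6.77 and 6.77 against 8.11, 7.93 and 8.12, which differed by 1.35 (SE 0.097, adjusted p = 1.18e-05). Zfp800 was at 7.41, 7.36 and 7.38 against 8.62, 8.74 and 8.84, which differed by 1.35 (SE 0.085, adjusted p = 5.61e-06). Both separated the groups by more than the spread within them. Zfp768 was at 5.92, 5.78 and 5.89 against 7.36, 7.25 and 6.98, which differed by 1.33 (SE 0.11, adjusted p = 2.91e-05). Zfp629 was at 5.33, 5.14 and 5.21 against 6.27, 6.23 and 6.21, which differed by 1.01 (SE 0.084, adjusted p = 2.66e-05). It lay just inside the minimum and was under it with arrays centred on a common median (0.99), with quantile normalization (0.98) and without ES replicate 2 (0.97), ES replicate 3 (0.999) or Pax7-GFP replicate 1 (0.99).

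Other developmental regulators of the family were not called. Zfp516, an activator of brown fat genes, was at 7.41, 7.39 and 7.52 in ES cells and at 8.93, 7.69 and 8.02 in Pax7-GFP cells. All Pax7-GFP arrays were higher, but their SD was 0.64 and the difference of 0.77 had an adjusted p of 0.0527 (SE 0.27). Without Pax7-GFP replicate 2 it was called, at 1.04, and without Pax7-GFP replicate 1 the difference was 0.42. Zfp750, a driver of epidermal differentiation, passed the p threshold alone, at -0.77 (SE 0.10, adjusted p = 0.000373). Zfp652, Zfp704, Zfp711, a partner of the demethylase Phf8, and Zfp541, a meiotic factor, lay at 0.044, 0.14, 0.13 and 0.12, with adjusted p-values of 0.769, 0.339, 0.254 and 0.572. Zfp697, known from skeletal muscle regeneration, was at 6.01, 6.19 and 6.07 against 6.69, 6.40 and 6.50. Its groups did not overlap, and the difference of 0.44 (SE 0.10, adjusted p = 0.00844) was under 2-fold.

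Chromatin partners differed in both directions without reaching 2-fold. Zfp532, Zfp592 and Zfp687 form a complex with the chromatin reader Zmynd8. Zfp592 was at 7.87, 8.16 and 8.05 in ES cells and at 8.70, 8.97 and 9.02 in Pax7-GFP cells, with a difference of 0.87 (SE 0.12, adjusted p = 0.000427). Zfp532 was at 9.03, 9.08 and 9.17 against 8.22, 7.70 and 8.50, with a difference of -0.96 (SE 0.18, adjusted p = 0.00293), and it was called at -1.13 without Pax7-GFP replicate 3. Zfp687 stood at -0.38 (adjusted p = 0.174). The 3 partners thus had unlike values, of which 2 passed the p threshold. Zfp746, also known as Paris, a substrate of the ubiquitin ligase parkin, was at 6.98, 6.81 and 6.90 against 7.72, 7.84 and 8.06. Its difference of 0.98 was called without ES replicate 1, at 1.02, without Pax7-GFP replicate 1, at 1.05, and with array weights, at 1.04. Zfp638, which recruits the HUSH silencing complex to unintegrated retroviral DNA, and Zfp827, a telomere factor, lay at -0.34 and 0.42, with adjusted p-values of 0.0709 and 0.211. Zfp644 had no row with 1 symbol and was not analysed here.

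Members that act on RNA and ribosomes, and others of general function, were not called. Zfp706, a factor linked to exit from pluripotency, was at 11.54, 11.54 and 11.52 in ES cells and at 11.65, 11.70 and 11.83 in Pax7-GFP cells. The difference of 0.20 (SE 0.082, adjusted p = 0.0918) passed neither threshold. Zfp598, the ubiquitin ligase of collided ribosomes, was at 8.87, 8.85 and 8.76 against 8.13, 8.17 and 8.51, with a difference of -0.56 (SE 0.11, adjusted p = 0.00435). Zfp622, a factor of large-subunit maturation, differed by -0.39 (SE 0.094, adjusted p = 0.0106), and Zfp830, needed for survival of early embryonic cells, by -0.27 (SE 0.08, adjusted p = 0.0276). The last 3 genes passed the p threshold alone. Zfp593 had no row with 1 symbol and was not analysed here.

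Among the 67 genes past the p threshold alone, 44 lay between -0.998 and -0.25 and 23 between 0.23 and 0.98. The median signal of the 144 uncalled genes was 6.65 to 6.68 in the ES arrays and 6.66, 6.47 and 6.52 in Pax7-GFP replicates 1, 2 and 3. Of the 177 genes, 12 were measured by several single-symbol probe sets, 26 in all. In all 12 the probe sets gave the same call, but only Zfp640 and Zfp709 were called, and the rest shared the lack of a call. In 6 the sign differed between probe sets. Among these were Zfp939, at 0.86 by the brighter probe set and -0.13 by the other, Zfp937, at -0.67 and 0.18, and Zfp943, at 0.14 and -0.61.

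Pax7-GFP replicate 1 stood above the other sorted arrays across much of the family. It was the highest Pax7-GFP array in 103 of the 177 genes (58.2%), against 33.8% of all genes, and in 17 of the 23 lower genes (73.9%), against 40.3% of all genes called lower. Replicate 2 was the highest in 15.3% of the family and the lowest in 50.3%. The genes from Zfp1 to Zfp499 had replicate 1 highest in 57.3%. Without replicate 1 the family had 38 called, 30 lower and 8 higher. The 10 ES markers had a mean signal of 5.58 in replicate 1, 5.53 in replicate 2 and 5.40 in replicate 3, against 9.82 to 9.90 in the ES arrays. Single ES markers differed in order. Replicate 1 was the lowest for Pou5f1, Zfp42, Fbxo15 and Dppa3, and the highest for Sox2, Esrrb, Tdgf1, Klf4 and Utf1. The fibroblast markers lay at 7.98, 7.75 and 7.57, and the muscle progenitor markers at 10.18, 10.09 and 10.32. Neural, endothelial and endoderm means were highest in replicate 2, and the haematopoietic mean in replicate 1. The part of any list in the order of the arrays was not tested.

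Neighbouring genes of the family were compared because such clusters arose by duplication. Gene order was taken from the RefSeq gene table (GRCm38.p6), with at most 2 other genes allowed between neighbours. This placed 78 of the 177 genes in 26 runs, the longest of 7 genes. Genes in runs had 12 lower, 1 higher and a median log2 fold change of -0.35, and the 99 outside runs had 11 lower, 9 higher and a median of -0.0069. The shares of lower genes, 15.4% and 11.1%, were not tested against each other, and were 16.8% and 8.54% with 5 genes allowed between neighbours. Zfp768 was the 1 higher gene inside a run.

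Within runs the size of the change varied. With 2 genes allowed between neighbours 0 runs held both a higher and a lower gene, and with 5 allowed 1 run did. In the run Zfp872, Zfp809, Zfp599 and Zfp810, Zfp809 and Zfp599 stood at -2.29 and -3.53 while the outer genes, not called, stood at -0.36 and -0.12. In the run Zfp709, Zfp882, Zfp617 and Zfp961, the outer genes had fallen, at -2.11 and -2.64, and Zfp882 and Zfp617 stood at -0.66 and -0.91. In both runs all 4 values were below 0. Zfp819 was the 1 called gene beside Zfp658 at -0.099 and Zfp719 at -0.34. The run of 7 from Zfp948 to Zfp943 ranged from -1.80, for Zfp820, to 0.88, with Zfp820 the 1 called gene. The run Zfp579, Zfp524, Zfp865, Zfp784 and Zfp580 lay above 0, between 0.092 and 0.66, with 0 called, and Zfp947, Zfp994, Zfp944, Zfp758 and Zfp946 lay below 0, between -0.90 and -0.28, with 0 called. Zfp768 stood at 1.33 next to Zfp747 at -0.67 and Zfp764 at -0.32.

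**Figure D3:**
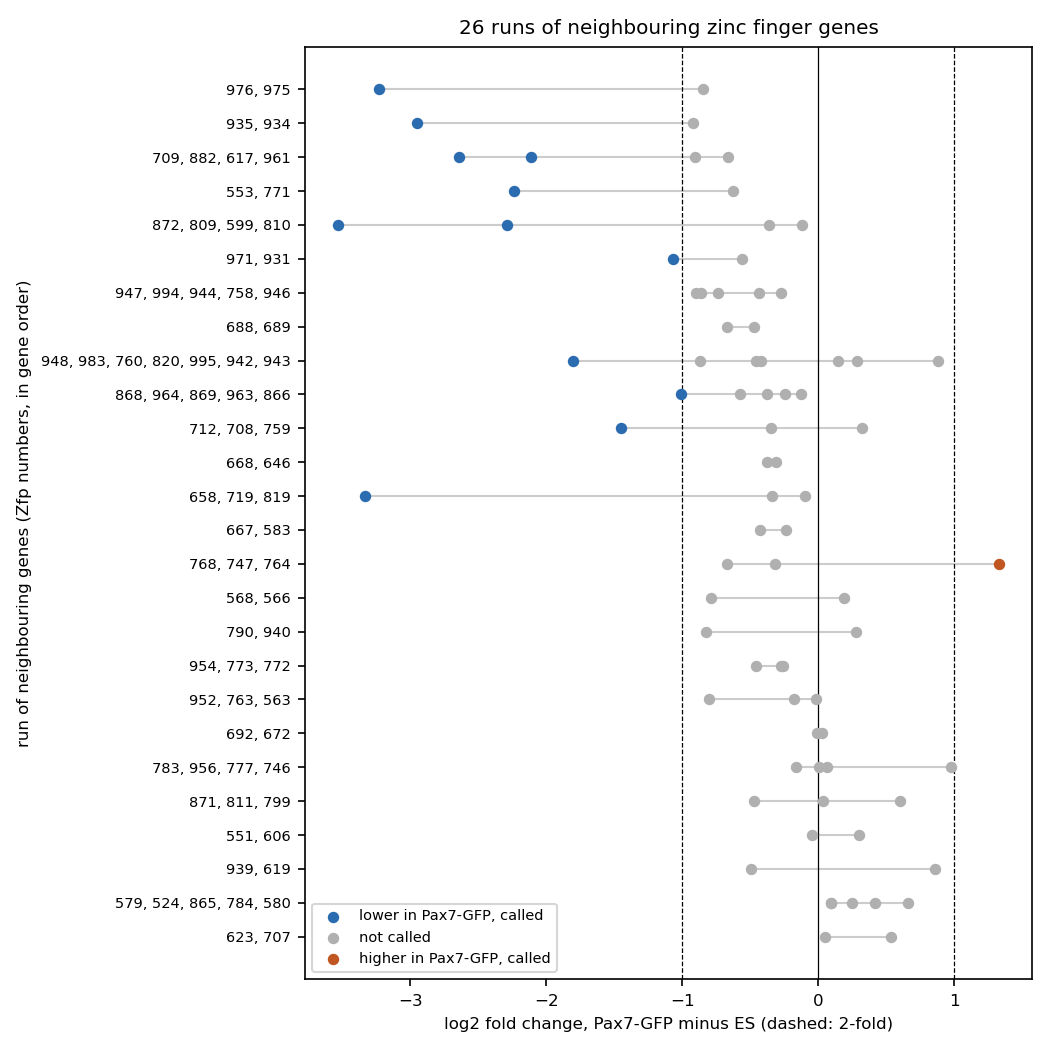
Log2 fold change (x axis) of the 78 genes that lie in 26 runs of neighbouring members, 1 line a run (y axis, Zfp numbers in gene order), ordered by the median of the run. Called genes often stand beside uncalled neighbours, as for Zfp819 at -3.33 beside Zfp719 at -0.34.

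The letters of the start windows were compared between lower and higher genes. Of the 149 genes with a window, 19 were lower and 7 were higher. A CCAAT box stood in a window of 16 of the 19 lower genes (84.2%) and 0 of the 7 higher ones, against 62 of 123 genes not called (50.4%) and 41.1% of all 27025 genes with windows. The 16 include the 6 lower genes with the shared string, which all hold the box too. Copies of a duplicated gene carry the same bases, so these genes are not separate cases. In the richest window of each gene, lower genes had a median of 8 CpG dinucleotides, higher genes 35, genes not called 15 and all genes 8. The GC box (GGGCGG or CCGCCC) was in 4 of 19 lower genes (21.1%) and 4 of 7 higher genes (57.1%), against 48.99% of the family and 38.2% of all genes. The TATA box (TATAAA) was in 0 called genes and 6.04% of the family, against 15.7% of all genes. The octamer ATGCAAAT, which Oct4 can bind, was in 0 called genes and in 1.97% of all genes. The E-box CAGCTG, which muscle factors can bind, was in 3 lower and 1 higher genes and in 18.3% of all genes. Each motif was searched on both strands, a match describes the letters only, and no difference between these groups of genes was tested.

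For contrast with the falling genes above, the start regions of Zfp503 and Zfp768, which rose, hold no CCAAT box. Capitals mark GC boxes, of which the 250 bases printed hold 3 for Zfp768 and 0 for Zfp503 (GRCm38.p6).
Zfp503 (chr14:21989602-21989851, minus strand): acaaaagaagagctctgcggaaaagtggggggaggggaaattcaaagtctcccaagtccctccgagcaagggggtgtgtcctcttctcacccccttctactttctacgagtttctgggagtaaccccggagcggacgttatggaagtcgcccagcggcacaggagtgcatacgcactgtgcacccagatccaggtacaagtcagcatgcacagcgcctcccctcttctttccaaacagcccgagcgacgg
Zfp768 (chr7:127345315-127345564, minus strand): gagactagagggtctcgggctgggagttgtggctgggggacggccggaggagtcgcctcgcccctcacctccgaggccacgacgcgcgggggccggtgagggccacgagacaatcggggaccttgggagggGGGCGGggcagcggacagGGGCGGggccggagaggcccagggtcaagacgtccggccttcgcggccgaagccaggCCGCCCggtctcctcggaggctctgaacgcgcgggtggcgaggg

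**Figure D4:**
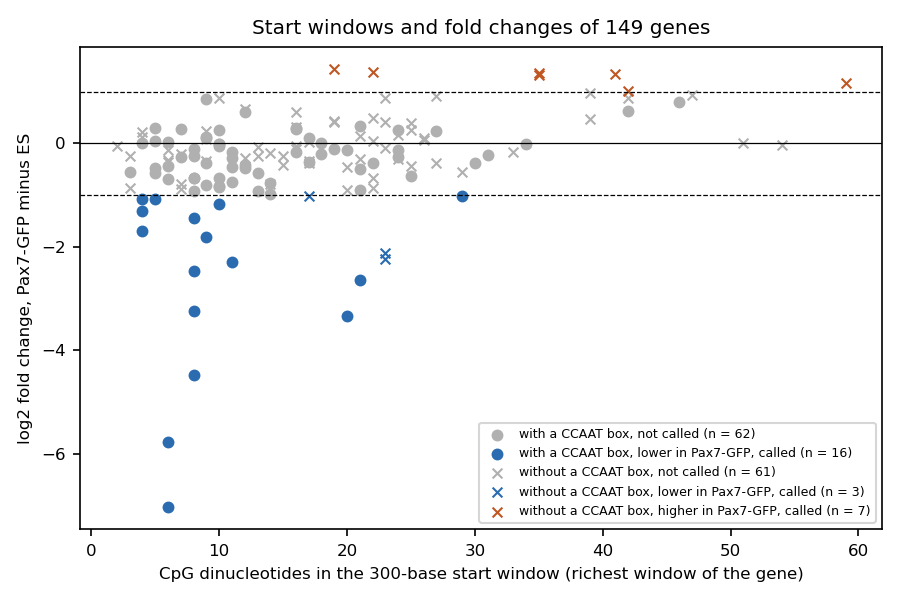
Log2 fold change (y axis) of 149 genes against the count of CpG dinucleotides in the richest 300-base start window of each gene (x axis), with circles for genes with a CCAAT box and crosses for those without. The 7 higher genes are crosses with at least 19 CpG, and 11 of the 19 lower genes have fewer than 10.

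Partners of KRAB zinc finger proteins were taken from a list of silencing genes, of which 32 were measured by a single-symbol row. In Pax7-GFP cells 10 of them were lower (31.2%) and 0 were higher, and 14 of the other 22 passed the p threshold alone. Over all genes 7.15% were lower and 7.34% higher, and 5914 of the 18968 uncalled genes passed the p threshold alone. The list's median log2 fold change was -0.63, against 0.024 for all genes. Its genes were bright, with a median ES signal of 10.05 against 6.03 for all genes. With genes of a mean signal up to 5.64 left out, 22.96% of all genes were called in either direction, against 14.5%. The list was chosen with earlier results of these data known, and the part of signal level was not tested. Trim28, the corepressor that KRAB domains bind, was at 11.48, 11.56 and 11.63 in ES cells and at 10.16, 10.35 and 10.52 in Pax7-GFP cells. It was lower by a log2 fold change of -1.21 (SE 0.11, adjusted p = 3.61e-05), and the groups did not overlap. Setdb1, the histone methyltransferase that Trim28 brings in, was at 9.61, 9.70 and 9.63 against 8.87, 8.88 and 9.14, with a difference of -0.68 (SE 0.097, adjusted p = 0.000578), under 2-fold.

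The 2 steepest falls of the list were of DNA methylation factors. Dnmt3l, a cofactor of the de novo methyltransferases, was at 9.96, 9.99 and 10.08 in ES cells and at 5.07, 5.61 and 4.76 in Pax7-GFP cells, which differed by -4.86 (SE 0.19, adjusted p = 3.89e-07). Dnmt3b, a de novo methyltransferase, was at 9.35, 9.36 and 9.46 against 5.79, 6.17 and 6.13, which differed by -3.36 (SE 0.11, adjusted p = 1.79e-07). Zfp57, the KRAB zinc finger protein that guards imprinted loci, was at 10.82, 10.84 and 11.01 against 8.60, 7.58 and 7.47, which differed by -3.01 (SE 0.27, adjusted p = 3.92e-05). Pax7-GFP replicate 1 was the highest of its group for Zfp57. The other lower genes were Tasor, a HUSH subunit, at -2.36, L3mbtl2 at -2.29, the deacetylase Hdac1 at -2.07, the histone chaperone Daxx at -1.57, the remodeller Smarcad1 at -1.23 and Uhrf1, which guides maintenance methylation, at -1.18. Mta1 at 0.80, Dnmt3a at 0.60, Chd3 at 0.54, Pphln1 at 0.50 and Ehmt1 at 0.40 were above 0 past the p threshold alone. The maintenance methyltransferase Dnmt1, at -0.10, and the heterochromatin protein Cbx3, at -0.065, passed neither threshold.

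**Figure D5:**
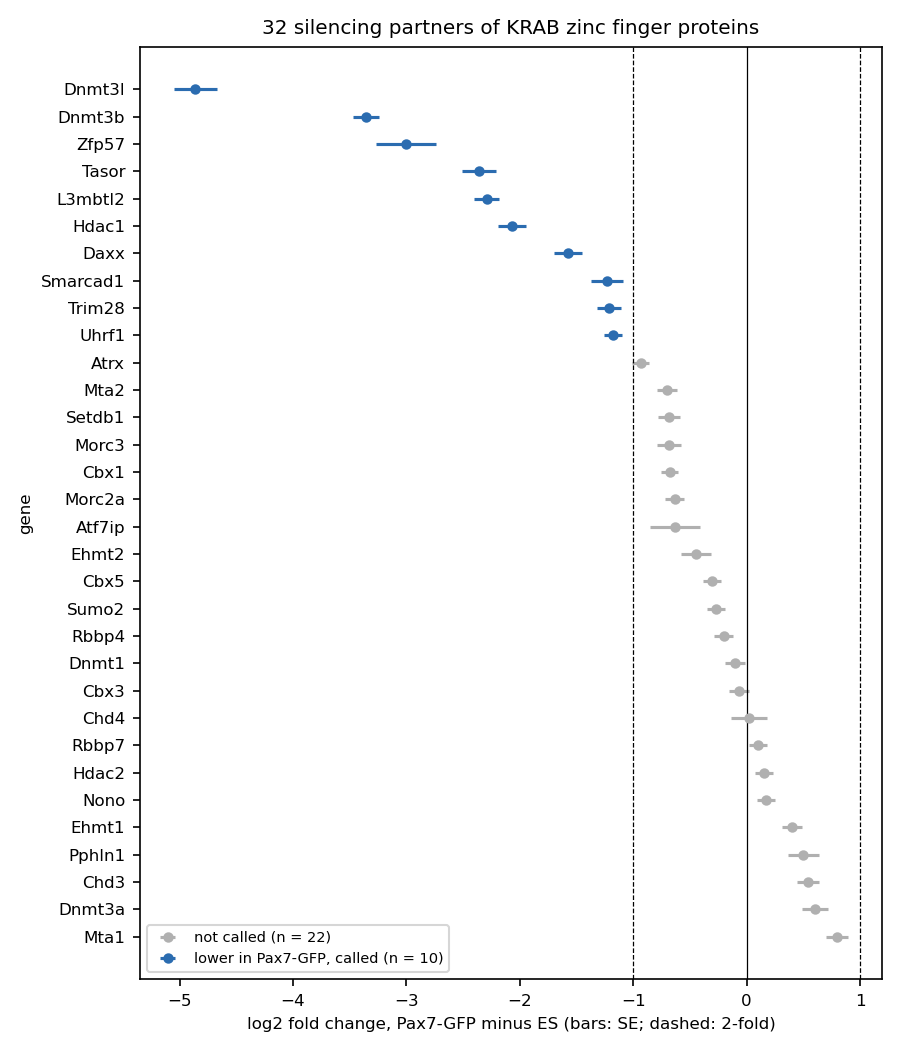
Log2 fold change with its SE (x axis) of the 32 measured genes of the silencing list (y axis), with dashed lines at a 2-fold difference. The 10 called genes are all lower, from Dnmt3l at -4.86 to Uhrf1 at -1.18, and Mta1 marks the upper end at 0.80.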

How the data were processed

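The table deposited by the authors holds log2 RMA signals, 1 value per probe set and array, made with R 2.12.1 per the submitters' processing notes. The sources used here do not give the probe set definitions. Platform annotation listed 25335 rows, 23521 of them with 1 symbol, and a gene took its single-symbol row with the highest mean over the 6 arrays. The RefSeq table (GRCm38.p6) holds 206 symbols in the range, of which 20 were not analysed here, 12 of them in rows with several symbols. Groups and replicate numbers come from the titles, which call the samples biological replicates. The labels do not say which were separate cultures, so p-values may reflect technical spread. Array medians were 5.61 to 5.69, and the number of arrays limits the precision.

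Pax7-GFP was compared with ES by limma 3.58.1 in R 4.3.3 (lmFit, eBayes, two-sided, Benjamini-Hochberg over 22180 genes), and the procedure was tested on simulated data. Members, lists and motifs were chosen with earlier results of these data known. The text names members with the 10 largest rises and falls, the 3 on each side of the 2-fold minimum, the 5 highest in both groups and those with listed roles (30 of 32 measured), and, from the silencing list, the 3 largest changes in each direction, Trim28 and Setdb1. Other genes were named after their values were seen. Same-numbered samples were not taken as pairs, since their deviations from the group means correlated at -0.11, -0.22 and 0.0069. Protein sequences were not used here.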

Additional observations from a re-analysis of the deposited data

How the results depend on the processing

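Scaling, signal floor, dim-gene filter, probe set mean, variance prior, array weights and replicate block gave 31 to 35 called members, against 33. The dim-gene filter left 142 members, of which 31 were called. It also raised the called share of all genes from 14.5% to 22.96%, and the members' share was then not above it. With the replicate block the count was 33, with 10 higher and 23 lower. Leaving out single arrays gave 31 to 38 calls (8 to 12 higher, 21 to 30 lower), and 30 to 32 of the 33 called genes stayed called. Other thresholds changed the counts: with no minimum fold 100 members passed (33 higher, 67 lower), 9126 of all genes, 24 silencing genes and 81 of the genes from Zfp1 to Zfp499. At a 4-fold minimum these were 15 (2 and 13), 1010, 6 and 13. A limma test against 2-fold (treat) called 20 (6 and 14), 1713 of all genes and 18 from Zfp1 to Zfp499. Testing every row called 4951 rows. With 0 genes allowed between neighbours 49 members lay in runs, and with 5 allowed 95 did. Of all 177 members, 101 to 110 were below 0 over the scaling, floor and left-out-array settings, against 106. Over the genes named by rule or called, which are the genes followed singly, signs turned for 5 uncalled ones: Zfp706 at -0.010 with the mean of probe sets, and, over single arrays left out, Zfp541 (-0.043 to 0.20), Zfp932 (-0.093 to 0.46), Zfp609 (-0.0089 to 0.29) and Zfp652 (-0.036 to 0.092). The cause was not tested. The comparison by KRAB domain was not run, because protein sequences were not used here.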
